A study of Mus musculus with 20 samples.

Results

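The regions described here were peaks of acetylated lysine 14 of histone H3 (H3K14ac) that were called in young mouse liver, that shared no base with a peak called in old liver, and that lay more than 5 kb from every transcript start site of the GENCODE basic annotation (mm10, GRCm38). They were chosen by these values from the young list, on chromosomes 1 to 19 and among the peaks of exactly 500 bp. Of 19350 young H3K14ac peaks, 18885 lay on chromosomes 1 to 19, 18424 of these were 500 bp wide, 14820 of these shared no base with an old peak, and 9698 of these were far from start sites, which is 50.1% of the young list. They are called young-only far peaks below. That they were absent from the old list and far from start sites was the way they were chosen and is not a finding.

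The study compared livers of young and old mice by chromatin immunoprecipitation with sequencing (ChIP-Seq). All animals were male C57BL/6 mice with no stated genetic change or treatment, 3 months old in the young group and 21 months old in the old group. Chromatin of whole liver was precipitated with antibodies to H3K14ac (3 livers per age), to the histone methyltransferase Setdb1 (3 per age) and to its partner Kap1 (2 per age). The reads of the livers of an age were merged before peaks were called, so each antibody and age gave 1 list, from which the spread among livers is unknown. The lists hold positions without heights, and the depth behind a peak is unknown. A list holds only regions past the threshold of the peak caller, so H3K14ac below that threshold in old liver would not appear, and in whole liver a mark in more cells and a stronger mark per cell cannot be told apart. No comparison below was tested. The interval beside a share is a 95% Wilson interval for the counting error alone, and neighbouring peaks are not replicates.

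H3K14ac is placed by acetyltransferases and is found at active promoters and enhancers. Setdb1 methylates lysine 9 of histone H3, a mark of silent chromatin, and can recognize H3 tails that carry acetylated lysine 14. Kap1, the product of Trim28, is brought to DNA by zinc finger proteins of the KRAB family and recruits Setdb1, and it is known for binding at endogenous retroviruses and at the zinc finger genes themselves.

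Marker genes of cell types were looked up beside the liver label. The share of all genes with such a peak was not counted, so the counts are a description and no check of cell types. Of 12 hepatocyte markers, 5 had a young and 4 an old H3K14ac peak within 1 kb of a start site, among them Apoa1, Apob and Rbp4 at both ages. None of the 11 listed Kupffer cell, 10 endothelial or 10 lymphocyte markers had such a peak at either age. Of 10 stellate cell markers Reln and Dcn had a young peak, of 10 neuron markers Syt1 and Dlg2, and of 10 muscle markers Myh7, whereas 2 of 8 cholangiocyte markers, Sox9 among them, had an old peak.

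Some young-only far peaks shared a base with both a Kap1 and a Setdb1 peak of young liver. The central 200 bases are printed for the 5 of them that had no second copy in the genome and the least soft-masked (repeat) sequence. The label refers to the whole 500 bp peak, and the printed bases can lie outside a factor peak. Those on chromosome 2 lie outside both factor peaks. Those in the Itm2c intron lie outside the Setdb1 peak, and those on chromosome 3 outside the Kap1 peak. All sequences are GRCm38, plus strand, 5′ to 3′, and capitals mark words that known liver or zinc finger factors bind, on either strand. The words are given with their shares further on. A sequence without capitals held none of the 14 words searched.
both factors, Itm2c intron (chr1:85900671-85900870): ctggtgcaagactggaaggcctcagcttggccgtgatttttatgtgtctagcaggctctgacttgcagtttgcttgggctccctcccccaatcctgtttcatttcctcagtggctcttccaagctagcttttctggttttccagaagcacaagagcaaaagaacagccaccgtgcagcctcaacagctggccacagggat
both factors, chromosome 2 (chr2:100264926-100265125): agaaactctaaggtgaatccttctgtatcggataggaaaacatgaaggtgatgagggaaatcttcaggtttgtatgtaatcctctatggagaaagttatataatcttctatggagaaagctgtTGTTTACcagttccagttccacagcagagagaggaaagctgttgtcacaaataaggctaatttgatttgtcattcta
both factors, chromosome 3 (chr3:113899722-113899921): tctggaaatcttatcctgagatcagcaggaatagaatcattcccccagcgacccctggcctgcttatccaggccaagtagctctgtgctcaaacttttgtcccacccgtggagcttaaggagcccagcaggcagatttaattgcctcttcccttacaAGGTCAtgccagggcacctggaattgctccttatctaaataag
both factors, chromosome 9 (chr9:36001065-36001264): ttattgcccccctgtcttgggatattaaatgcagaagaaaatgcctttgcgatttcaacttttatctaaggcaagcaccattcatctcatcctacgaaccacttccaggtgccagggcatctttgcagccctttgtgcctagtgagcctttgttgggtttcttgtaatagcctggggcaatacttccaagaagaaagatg
both factors, chromosome 19 (chr19:61244229-61244428): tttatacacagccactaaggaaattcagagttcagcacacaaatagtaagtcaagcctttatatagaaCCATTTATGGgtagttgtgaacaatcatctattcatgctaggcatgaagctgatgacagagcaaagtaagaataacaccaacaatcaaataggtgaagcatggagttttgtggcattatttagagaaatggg
For 5 gene lists of liver metabolism and its regulators, the central 200 bases are printed for the young-only far peak nearest to a start site of a gene of the list. These genes were Angptl8, a fed-state regulator of lipoprotein lipase, Slco1b2, a hepatocyte uptake transporter of bile acids and drugs, Pcx, the pyruvate carboxylase of gluconeogenesis, Nr1h4, the bile acid receptor FXR, and Creb3l3, a liver transcription factor of lipid metabolism. The Angptl8 peak lay 5012 bp from the start site of Angptl8 over an exon in the neighbour Dock6, and the other 4 lay in an intron of the gene itself.
Angptl8 (chr9:21830149-21830348): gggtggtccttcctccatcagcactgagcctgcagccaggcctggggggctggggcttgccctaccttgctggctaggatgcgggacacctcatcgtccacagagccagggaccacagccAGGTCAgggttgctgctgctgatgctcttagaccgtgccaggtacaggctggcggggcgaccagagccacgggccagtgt
Slco1b2 (chr6:141642305-141642504): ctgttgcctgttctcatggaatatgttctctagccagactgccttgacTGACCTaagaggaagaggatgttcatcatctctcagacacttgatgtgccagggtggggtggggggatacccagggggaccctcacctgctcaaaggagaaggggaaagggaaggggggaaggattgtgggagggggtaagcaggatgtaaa
Pcx (chr19:4588240-4588439): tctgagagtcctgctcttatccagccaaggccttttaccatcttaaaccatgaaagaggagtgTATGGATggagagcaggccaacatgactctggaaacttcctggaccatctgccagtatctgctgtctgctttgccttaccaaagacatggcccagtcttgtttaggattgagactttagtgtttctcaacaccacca
Nr1h4 (chr10:89526735-89526934): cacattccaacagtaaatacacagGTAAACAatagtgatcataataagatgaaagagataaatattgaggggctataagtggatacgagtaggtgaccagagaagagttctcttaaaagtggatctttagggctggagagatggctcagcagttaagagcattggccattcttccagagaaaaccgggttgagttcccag
Creb3l3 (chr10:81093059-81093258): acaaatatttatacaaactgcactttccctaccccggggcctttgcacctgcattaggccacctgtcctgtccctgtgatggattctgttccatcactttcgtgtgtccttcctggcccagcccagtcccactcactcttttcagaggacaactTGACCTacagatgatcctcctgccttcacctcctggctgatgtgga

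How far the young-only far peaks stood alone depended on the distance over which they were joined. When neighbours were joined over the gap commonly used to join enhancers into super-enhancers, 6555 of the 9698 stood alone, 1476 stood in pairs, 1299 in groups of 3 to 9 and 368 in 26 clusters of 10 or more. In all, 32.4% stood with at least 1 other, against 21.3% when gaps of up to 5 kb were joined and 58.3% when gaps of up to 50 kb were. Only 187 shared a base with another young-only far peak. The median distance to a start site was 23618 bp and the median gap to the nearest old H3K14ac peak was 32250 bp.

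At the edge of the rule, an included peak lay 5007 bp from the start site of Afdn and the nearest excluded one 5000 bp from that of Gm5525. Towards the old list, the closest included peak, on chromosome 4, lay 2 bp from an old peak, and an excluded peak on chromosome 1 shared 9 bp with old peaks. Young-only far peaks of another width, which the rule left out, numbered 79 and were 502 to 3204 bp wide. An old H3K14ac peak lay within 500 bp of 365 members (3.76%) and within 5 kb of 1848 (19.1%), while 2733 (28.2%) had none within 100 kb. The gap to the old list thus ran from a few bases to long stretches.

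The peaks farthest from any start site lay 660.9 kb away within Dcc, a netrin receptor gene, 605.2 kb away with Cntnap5a as the nearest protein-coding gene and 570.7 kb away with Pom121l12 as the nearest. The 3 peaks farthest from any old H3K14ac peak, at gaps of 2375077 to 2641715 bp, lay on chromosome 8 with the cadherin gene Cdh8 as the nearest protein-coding gene, 1 of them within it. None of these 6 peaks shared a base with a young Kap1 peak.

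**Figure D1:**
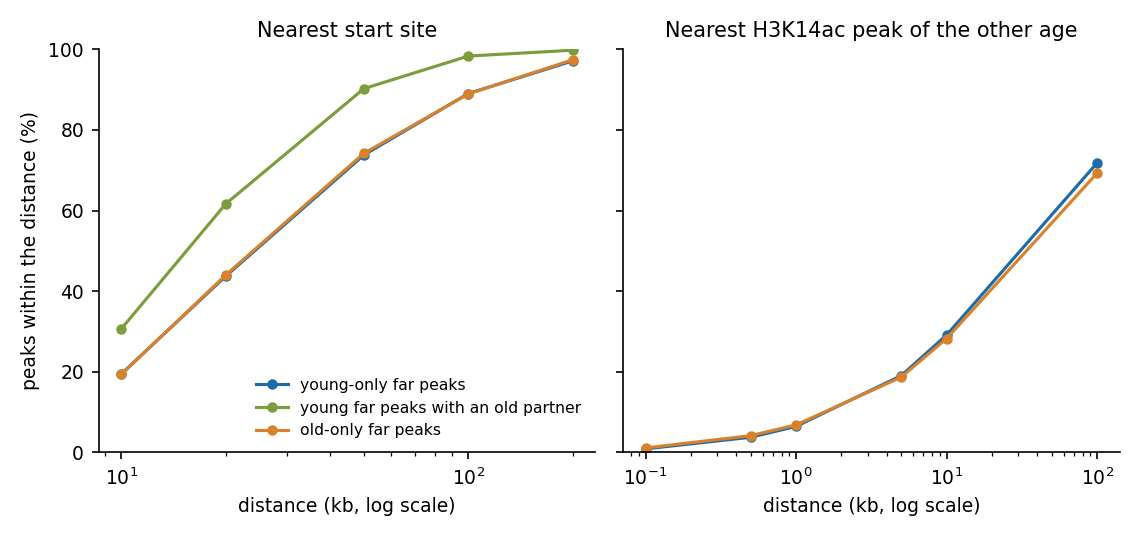
Cumulative share of peaks (y axis, percent) by distance in kb (x axis, log scale) to the nearest start site (left) and to the nearest H3K14ac peak of the other age (right). Young-only far peaks follow old-only far peaks closely in both panels, with 43.7% against 44.0% within 20 kb of a start site, while young far peaks with an old partner lie nearer, 61.6% within 20 kb.

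The same rule applied to the old list gave 8779 old-only far peaks. In distance to start sites these were nearly the same as the young-only far peaks, with a median of 23482 bp. The 829 young far peaks that did share a base with an old peak lay nearer to start sites, with a median of 15028 bp. The plot of cumulative distances shows the 3 sets.

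In sequence, the young-only far peaks were richer in G and C than the far genome around them. Their median GC content was 44.4%, against 41.4% in all 3853644 windows of 500 bp that lay more than 5 kb from a start site, 44.8% in old-only far peaks and 46.2% in far peaks with an old partner. The mean number of CpG per peak, 3.96, was close to the 3.88 of the windows. The median share of soft-masked bases was 19.2%, against 24% in the windows and 16.4% in old-only far peaks. More than 50% of the sequence was soft-masked in 19.01% of the members (18.3% to 19.8%), in 13.6% of old-only far peaks (12.9% to 14.4%) and in 24.9% of the windows. The members thus held less repeat sequence than the far genome and more than the old-only peaks did, by more than the counting intervals.

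A second copy, sought at 95% identity over at least 90% of the length, was found for 142 members or 1.46% (1.24% to 1.72%). Old-only far peaks had one in 0.866% (0.692% to 1.08%) and far peaks with an old partner in 7.48% (5.88% to 9.47%). The looser limit of 90% identity over at least 50% of the length gave 763 members or 7.87%, with 4.44% of old-only far peaks and 21.2% of far peaks with an old partner. Only reads that aligned uniquely were kept, so the part that copied sequence plays in these shares was not tested.

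Members lay in genes somewhat less often than the far genome did. A gene body held 4156 or 42.9% (41.9% to 43.8%), against 46.0% of the windows, 46.2% of old-only far peaks (45.2% to 47.3%) and 49.8% of far peaks with an old partner (46.4% to 53.2%). An exon was touched by 573 members, an intron alone held 3583 and 5542 lay between genes.

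Kap1 was the partner found most often. A young Kap1 peak shared a base with 909 young-only far peaks, or 9.37% (8.81% to 9.97%), where 10.6% of all 500 bp young H3K14ac peaks of chromosomes 1 to 19 did so. The share was 1.24% in the far windows, 7.495% (6.96% to 8.07%) in old-only far peaks and 42.1% (38.8% to 45.5%) in far peaks with an old partner. The share in the members was thus slightly below that of young H3K14ac peaks in general, which also lay above the far windows, and below that of the far sites with a peak at both ages.

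Neither Kap1 list played a part in choosing the members. The Kap1 list of old liver gave the same order at lower values, and the value of the windows was lower too. The share of the members was 7.56 times that of the windows for young Kap1 and 10.05 times for old Kap1. An old Kap1 peak shared a base with 562 members or 5.80% (5.35% to 6.28%), beside 7.00% of all 500 bp young peaks, 4.11% (3.72% to 4.55%) of old-only far peaks, 34.5% (31.3% to 37.8%) of far peaks with an old partner and 0.576% of the windows. Kap1 was found at both ages on 296 members, or 3.05%, beside 4.55% of all 500 bp young peaks. With no old H3K14ac peak within 5 kb the members' shares were 6.17% for young and 3.35% for old Kap1, and with factor peaks within 500 bp counted they were 14.9% and 9.37%. Without the densest 1 Mb bins they were 4.78% and 2.99%.

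Setdb1 was rarer at the members. A young Setdb1 peak shared a base with 276 or 2.85% (2.53% to 3.20%), where 2.52% of all 500 bp young peaks did so. The windows gave 1.47%, old-only far peaks 2.47% (2.17% to 2.82%), far peaks with an old partner 7.84% (6.199% to 9.87%) and young-only peaks within 5 kb of a start site 1.70% (1.38% to 2.09%). An old Setdb1 peak lay on 106 members or 1.09% (0.905% to 1.32%), beside 0.939% of all 500 bp young peaks, 0.866% (0.692% to 1.08%) of old-only far peaks and 0.408% of the windows. The intervals of the members and the old-only far peaks overlapped for both Setdb1 lists. Counting factor peaks within 500 bp gave 5.51% for young and 1.77% for old Setdb1.

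**Figure D2:**
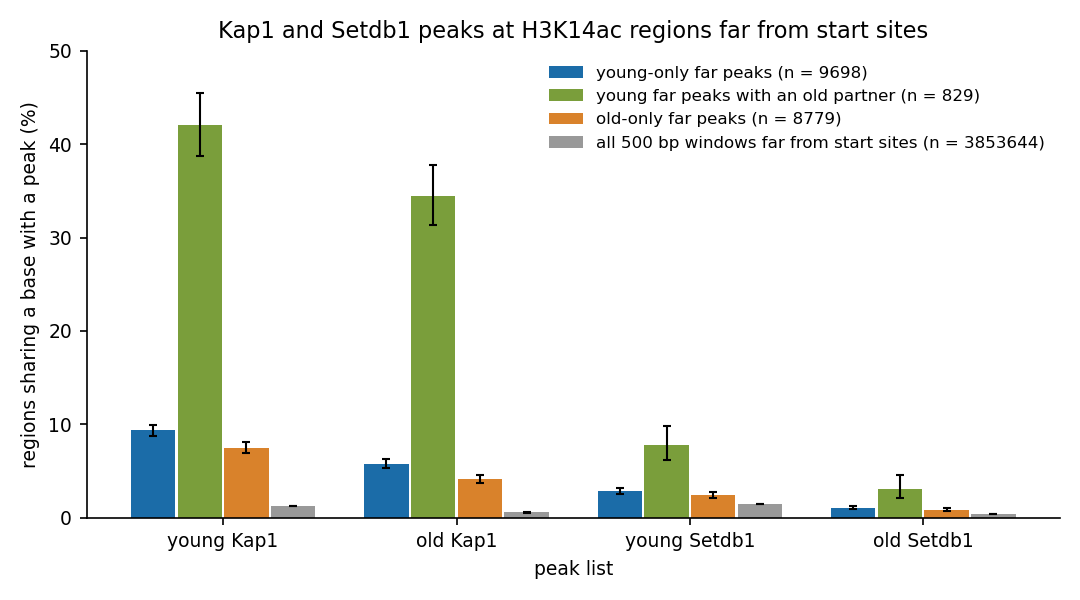
Share of regions (y axis, percent) that shared at least 1 base with a peak of each Kap1 and Setdb1 list (x axis). Bars are young-only far peaks (n = 9698), young far peaks with an old partner (n = 829), old-only far peaks (n = 8779) and all far 500 bp windows (n = 3853644), and error lines are 95% Wilson intervals. Young-only far peaks stand above the windows in all 4 lists and below the peaks with an old partner.

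Both young factors met on 49 members, or 0.505% (0.382% to 0.667%), where 0.792% of all 500 bp young peaks carried both. Old-only far peaks gave 0.422% (0.306% to 0.580%) and far peaks with an old partner 6.03% (4.61% to 7.86%). The share of the members was 0.250% without the 1 Mb bins densest in members, 0.319% with no old H3K14ac peak within 5 kb, 0.268% when 50% of a factor peak had to lie inside the member and 1.38% when a factor peak within 500 bp counted. In 36 of the 49 the Kap1 and the Setdb1 peak shared bases within the member, 20 also lay on an old Kap1 peak and 4 on an old Setdb1 peak. None of the 4 factor lists had a peak on 8231 members, or 84.9%, and the share was the same, 84.9%, over all 500 bp young peaks.

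Of these 49, the 12 with the least soft-masked sequence lay on chromosomes 1, 2, 3, 9, 10, 11, 12 and 19. The first was in an intron of Itm2c, which encodes a membrane protein of the BRICHOS family, at chr1:85900521-85901020, and lay 48 bp from an old H3K14ac peak. One was 7554 bp from the start site of Tcf21, a transcription factor of mesenchymal cells (chr10:22827728-22828227). Others lay in introns of Car13, a carbonic anhydrase gene (chr3:14651864-14652363), of the neuronal gene Lrfn5 (chr12:61806794-61807293) and of Vstm2a (chr11:16339926-16340425), and 2 that overlapped each other lay in Gm27187 (chr9:36000915-36001414 and chr9:36001195-36001694). The remaining 5 lay near Csf2ra (chr19:61244079-61244578), a subunit gene of a cytokine receptor, in Gm49692 (chr12:20229402-20229901), and between genes at chr2:100264776-100265275, chr3:113899572-113900071 and chr12:21598831-21599330. Of these 12, the peaks near Csf2ra and in Gm49692 also carried an old Kap1 peak, and the Gm49692 peak alone had a second copy.

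Kap1 went with repeats and copies among the members. The same splits are not given for the other sets, so they are not read as particular to the members. A young Kap1 peak lay on 16.8% (15.2% to 18.6%) of the 1844 members that were more than 50% soft-masked and on 7.63% (7.06% to 8.24%) of the 7854 others. The share was 45.8% (37.8% to 54.0%) of the 142 members with a second copy and 8.83% (8.28% to 9.42%) of those without. For young Setdb1 the intervals overlapped in both splits, at 3.25% (2.54% to 4.17%) against 2.75% (2.41% to 3.14%) by repeats and 4.23% (1.95% to 8.91%) against 2.83% (2.51% to 3.18%) by copies. Members between genes were on young Kap1 more often, 11.01% (10.2% to 11.9%), than members in genes, 7.19% (6.45% to 8.02%).

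Part of the members lay packed in a few stretches of the genome. Of 2413 bins of 1 Mb, 610 held no member, 1567 held 1 to 9, 166 held 10 to 19 and 70 held 20 or more, with a median of 2. The 70 dense bins made up 2.49% of the far sequence and held 2101 members, or 21.7%. They also held 13.6% of the old-only far peaks, and in 62 of the 70 the young-only far peaks outnumbered the old-only ones. Since these bins were chosen by their members, that number is a description.

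**Figure D3:**
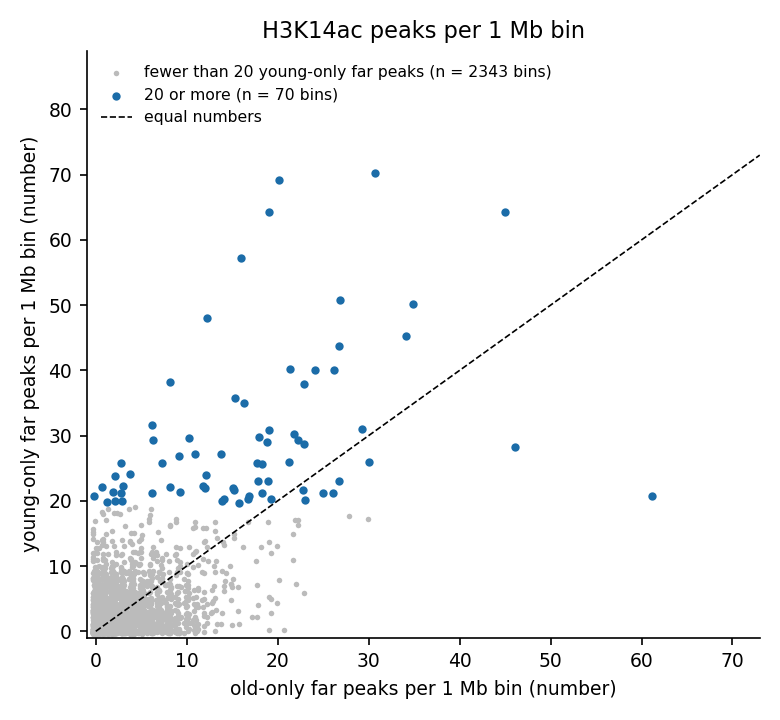
Young-only far peaks (y axis, number) against old-only far peaks (x axis, number) in each of 2413 bins of 1 Mb, with points moved slightly at random so that they can be told apart and a dashed line at equal numbers. The 70 bins with 20 or more young-only far peaks (blue) lie mostly above the line.

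The densest bin, with 70 members and 31 old-only far peaks, was the stretch chr7:39000001-40000000 around the zinc finger gene Zfp619. Next came chr12:24000001-25000000 with 69 and 20, around Mboat2, Grhl1, a grainyhead transcription factor, and Taf1b, a factor of RNA polymerase I. Chromosomes 1 and 4 each had a bin of 64 members, chr1:85000001-86000000 with the interferon-induced gene Sp100 and chr4:145000001-146000000 with Vps13d and the TNF receptor gene Tnfrsf1b. A further one, chr10:130000001-130694993 at the end of chromosome 10, held 57 members around the neuronal factor Neurod4, the vomeronasal receptor gene Vmn2r84 and the olfactory receptor gene Olfr827, and chr3:113000001-114000000 held 51 around the amylase genes. Bins of 3 further gene families were the defensins (chr8:20000001-21000000 and chr8:21000001-22000000, 32 and 35 members), the secretoglobins (chr7:33000001-34000000, 24 members) and the chitinase-like genes (chr3:106000001-107000000, 28 members), all named after their counts were seen.

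The dense bins held more Kap1 peaks than the other bins at both ages and, by a smaller margin, more Setdb1 peaks. They held a median of 135 young Kap1 peaks against 11 in the other bins, 79 old Kap1 peaks against 3, 24 young Setdb1 peaks against 20, and 8 old Setdb1 peaks against 5. Old H3K14ac peaks were also dense there, with a median of 36.5 against 5. The median of young H3K14ac peaks was 50 against 4, which the choice of these bins fixes. For the other 5 lists the median was also higher in the dense bins.

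Young Kap1 lay on 546 of the 2101 members in dense bins, or 25.99% (24.2% to 27.9%), and on 363 of the 7597 elsewhere, or 4.78% (4.32% to 5.28%). The far windows went the same way, at 8.88% and 1.04%, as did the old-only far peaks, at 26.4% (23.98% to 28.97%) and 4.51% (4.07% to 5.001%). Within either kind of bin the intervals of young-only and old-only far peaks overlapped, whereas over all bins the young-only share was the higher. For young Setdb1 the shares of the members were 4.05% (3.28% to 4.98%) in dense bins and 2.51% (2.19% to 2.89%) elsewhere. A second copy was found for 3.28% (2.60% to 4.14%) of the members in dense bins and 0.961% (0.765% to 1.21%) of the others. The part that copy number or mapping plays in the dense bins was not tested.

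**Figure D4:**
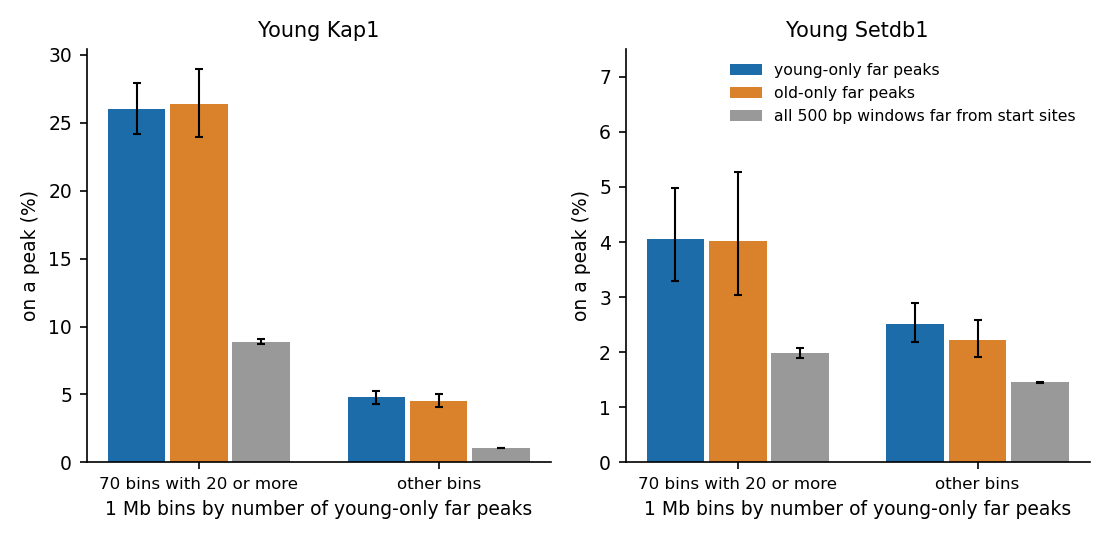
Share of regions on a young Kap1 (left) or young Setdb1 (right) peak (y axes, percent, with different scales) in the 70 bins with 20 or more young-only far peaks and in the other bins, for young-only far peaks, old-only far peaks and all far 500 bp windows. Error lines are 95% Wilson intervals. In dense bins 25.99% of young-only and 26.4% of old-only far peaks lay on young Kap1, and elsewhere 4.78% and 4.51%.

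Clusters with the most members lay within such stretches. The largest, chr1:85800337-85887770, held 28 members over 87.4 kb across Cab39, a scaffold of the kinase LKB1, and towards Itm2c, together with 11 old H3K14ac peaks, 28 young Kap1 and 18 old Kap1 peaks. A cluster of 23 members in the defensin region, chr8:20950372-21018693, had 17 of them on young Kap1 and 14 on old Kap1. The 19 members at chr13:12808739-12858274, near the placental prolactin gene Prl2c3, were the most copied, 13 of them with a second copy, and 12 lay on young Kap1. The 17 members at chr4:122018600-122059459 were the tightest of these 4 clusters, at 4.16 per 10 kb, with 15 on young Kap1 and 13 on old Kap1. In each of the 4 at least 11 members lay on young Kap1.

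Across chromosomes, density ran from 6.62 members per Mb of far sequence on chromosome 4 to 3.34 on chromosome 11, with 5.03 over all. Old-only far peaks had 5.98 and 3.33 per Mb on the same chromosomes, so both sets were sparse on chromosome 11. Young Kap1 lay on 13.2% of the members of chromosome 4 and 2.28% of those of chromosome 11, and its share was highest on chromosome 7, at 19.8%. Of the 70 dense bins, 10 lay on chromosome 4, 9 on chromosome 3 and 8 on chromosome 7.

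Single genes could hold many members. Vps13d, whose product moves lipids between membranes and shapes mitochondria, held 36 in its 222.4 kb, beside 20 old-only far peaks and 8 young far peaks with an old partner. Mboat2, a lysophospholipid acyltransferase, held 24 against 5 old-only peaks. The noncoding gene AC174800.1 held 21, and the kinase genes Rps6ka2 and Grk5 held 16 each, as did Fgf14, which modulates sodium channels, and Gm20388, a gene model that spans 4435 kb. Old-only far peaks numbered 10 in AC174800.1, 9 in Rps6ka2, 5 in Grk5, 16 in Fgf14 and 26 in Gm20388. In Grk5 8 of the 16 lay on young Kap1, in Vps13d 1 of 36. In all, 2477 genes of any kind held at least 1 member, 823 held 2 or more and 29 held 10 or more.

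To see which liver genes lay nearest, each member was given to the protein-coding gene with the nearest start site within 100 kb, which placed 5639 members. At least 1 member was given to 3179 of 20780 protein-coding genes, or 15.3%, and at least 1 old-only far peak to 16.2%. Of these, 1289 genes had both. The gene lists were chosen with earlier results of these data known, and their counts are set beside these shares without a test.

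Of the 22 lists, that of liver transcription factors had the highest share of genes with a member by this assignment. Of 28 such genes, 15 had a member, or 53.6% (35.8% to 70.5%), and 15 had an old-only far peak, 8 of them both. When the gene body had to hold the member the count was 8 of 28 (28.6%), below neuron markers at 3 of 10 (30%), where 9.67% of all genes held one. Creb3l3 and Nfia, a nuclear factor I gene, had 3 members each, and Gata6 had 2. The nearest lay 5466 bp from the start site of Creb3l3, and 2 of its 3 members lay on young Kap1. Per Mb of far sequence nearest to them these genes had 9.54 members against 5.40 for all protein-coding genes, and 15.3 old-only far peaks against 5.21.

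Nuclear receptors and their partners were near all genes in density of members. Of 32, 11 had a member (34.4%, 20.4% to 51.7%), at 5.64 per Mb, close to the value of all genes. An old-only far peak was also given to 11. Their 30 old-only far peaks came to 9.96 per Mb, against 5.21 for all genes. Rxra, the shared partner of many nuclear receptors, had 4 members and 9 old-only far peaks. Nr1h4, the thyroid hormone receptor gene Thrb and Nr2f1 had 2 members each. Those of Nr1h4 and Thrb lay within the gene itself, with no old-only far peak given to the gene, whereas Nr2f1 had 3 old-only far peaks.

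Among the lists, the glucose genes had the highest density of members. The 21 genes of gluconeogenesis, glycolysis and glycogen had 20 members at 15.3 per Mb, but only 4 genes had any (19.05%, 7.67% to 40%). An old-only far peak was given to 6 of the 21, with 9 such peaks at 6.89 per Mb. Fbp1, the fructose bisphosphatase of gluconeogenesis, had 9 and Pcx had 7, all of the latter within the gene, against 3 and 2 old-only far peaks. The glucose transporter gene Slc2a2 and Ppp1r3c, a glycogen-targeting phosphatase subunit, had 2 each. Of the 29 members in the 1 Mb bin of Fbp1, chr13:62000001-63000000, 1 lay on young Kap1, the Fbp1 bin being among the dense ones.

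Of 22 genes of amino acid and urea metabolism, 7 had a member (31.8%, 16.4% to 52.7%). By gene body, 2 of the 22 held one (9.09%), against 9.67% of all genes. Mat1a, the methionine adenosyltransferase of liver, had 3, the nearest 5092 bp from its start site, Bhmt had 2 and the tryptophan dioxygenase gene Tdo2 and the urea cycle gene Ass1 had 1 each. Cholesterol and bile acid genes had a member in 7 of 25 (28.0%, 14.3% to 47.6%), with 3 at the phospholipid exporter gene Abcb4, 2 each at Insig2, which restrains sterol synthesis, and at the squalene synthase gene Fdft1, and 1 at Slco1b2. For the cytochrome P450 genes of drug metabolism the count was 6 of 24 (25%, 12% to 44.9%), led by Cyp2c29 with 6 members and 5 old-only far peaks, then Cyp3a41a with 3 and Cyp3a11 and Cyp2a5 with 1 each.

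Fatty acid oxidation and ketogenesis had a member in 5 of 23 genes (21.7%, 9.66% to 41.9%), among them 2 at Pdk4 and 1 each at Cpt1a, the carnitine transferase of mitochondrial import, and Ehhadh. Fatty acid and triglyceride synthesis had one in 5 of 27 (18.5%, 8.18% to 36.7%), with 2 in Dgat2, which makes triglyceride, and 1 each at Acaca, Srebf1 and Lpin2. Apolipoproteins and lipoprotein handling had one in 4 of 27 (14.8%, 5.92% to 32.5%), single members at Angptl8, Abcg8, Lrp1 and Apoa1. That list had more old-only far peaks, 13 against 4 members (11.9 against 3.65 per Mb), with 4 at Lrp1 and 2 at Apoa1. These 3 shares had intervals that spanned the 15.3% of all genes. An old-only far peak was given to 4 of the oxidation genes, 7 of the synthesis genes and 6 of the apolipoprotein genes, and to 8 each of the amino acid, cholesterol and P450 genes. By gene body, 2 of the 23 oxidation genes held a member (8.70%), against 9.67% of all genes.

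Of 38 complement, coagulation and acute phase genes only F5 and C6 had any, 2 each (5.26%, 1.46% to 17.3%), an interval that also spanned the 15.3% of all genes. Histone acetylation enzymes had members at 2 of 26 genes (7.69%, 2.14% to 24.1%), 4 within the acetyltransferase gene Kat2b and 1 in Crebbp. The H3K9 methylation genes and Kap1 partners had them at 6 of 20 (30%, 14.6% to 51.9%), among them the demethylase genes Kdm4a and Kdm4c, Dnmt1 and Cbx5, which encodes heterochromatin protein 1 alpha. Old-only far peaks were given to 6 complement, 6 acetylation and 5 H3K9 genes. Clock genes had single members at 5 of 21 (23.8%, 10.6% to 45.1%), including Csnk1e, Nr1d1, Clock and Per2, and an old-only far peak at 6. In the growth hormone, insulin and IGF pathway 3 of 27 genes had members (11.1%, 3.85% to 28.1%), of which Ghr, the growth hormone receptor gene, had 9, against 1 old-only far peak, and Pik3ca and Foxo3 had 2 each. Old-only far peaks were given to 8 of the 27 genes (29.6%), and over the list there were 13 members and 13 old-only far peaks. By gene body, 5 of these 27 genes held a member (18.5%), as did 3 of the 26 acetylation enzymes (11.5%), against 9.67% of all genes.

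Of the marker lists, hepatocyte markers had a member in 5 of 12 genes (41.7%, 19.3% to 68.1%), with 2 at Ttr and 1 each at Ahsg, Hnf4a and Alb among them. When the gene body had to hold the member, 1 of 12 did (8.33%), against 9.67% of all genes. None of 10 Kupffer cell markers and none of 10 lymphocyte markers had any, for which the Wilson interval reaches up to 27.8%. Endothelial markers had members at 2 of 10 (Cdh5 and Pecam1), stellate cell markers at 3 of 10 (Col3a1, Reln and Dcn), cholangiocyte markers at 2 of 8 (Spp1 among them), neuron markers at 4 of 10 (Rbfox3, Dlg2 and Syt1 among them) and muscle markers at 1 of 10 (Actn2). Genes of cell types other than hepatocytes thus also had members. Per Mb, neuron markers had 3.39 members, cholangiocyte markers 6.16 and hepatocyte markers 9.21, and old-only far peaks had the same densities in these lists. An old-only far peak was given to 5 hepatocyte, 1 Kupffer cell, 5 endothelial, 2 stellate cell, 4 cholangiocyte, 4 neuron and 1 muscle marker genes. No lymphocyte marker was given one. The part of other cell types in the members was not tested.

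**Figure D5:**
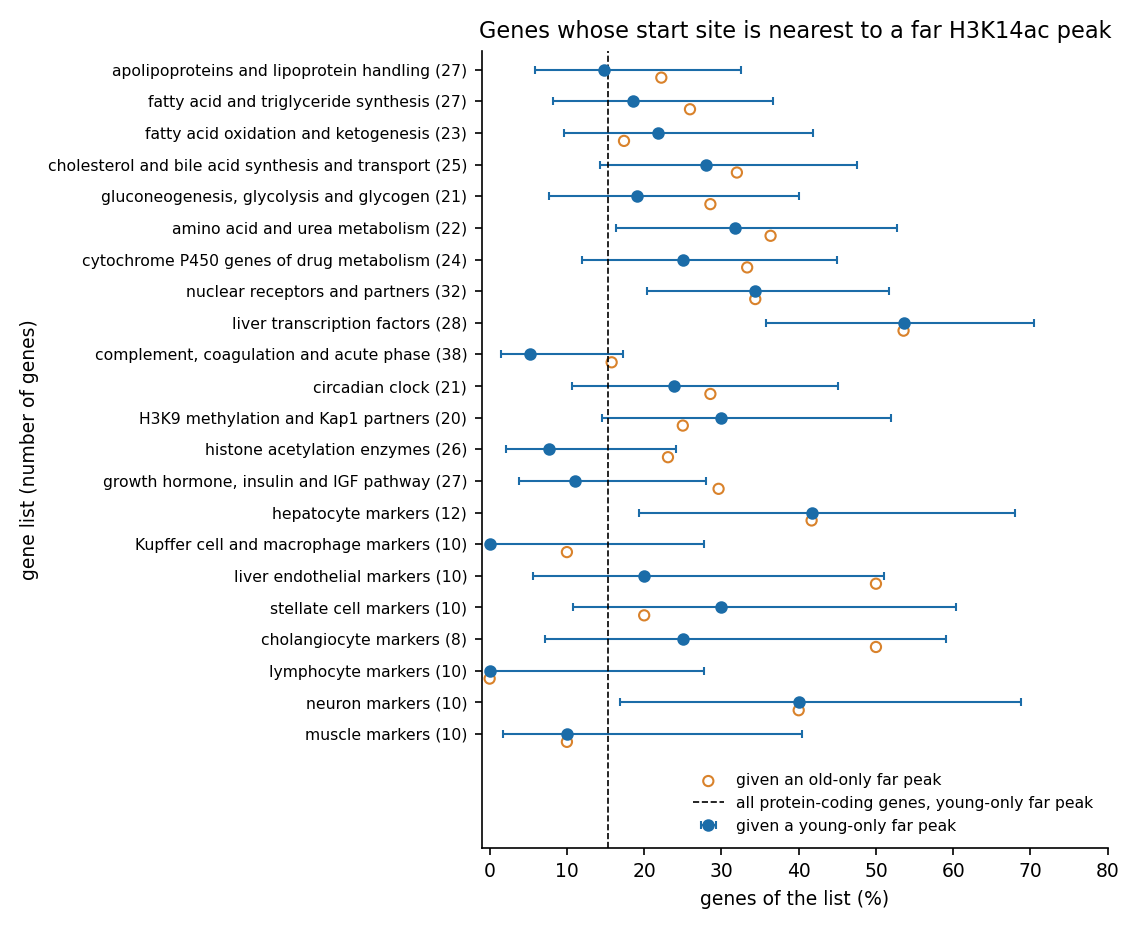
Share of the genes of each list (x axis, percent; y axis, the lists with the number of genes) that were given a young-only far peak (blue, with 95% Wilson intervals) or an old-only far peak (open orange). The dashed line is the 15.3% of all protein-coding genes given a young-only far peak. Liver transcription factors, at 53.6%, lie farthest to the right.

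Short words that liver factors bind were then counted in the members and in the far genome. Each was searched on both strands of the whole 500 bp, and the words were CAAAGTCCA for Hnf4, TGTTTAC for Foxa, TTGCNNAA for Cebp, ATCNATA for Hnf6, GTTAATNAT for Hnf1, AGGTCA for the nuclear receptor half-site, ACANNNTGT for the glucocorticoid receptor, TTGGCA for the NFI half-site, AGNGGGCNC for CTCF, TGANTCA for AP-1, CACGTG for the E-box, CCGGAAG for ETS factors, TGCCGC for Zfp57 and the CArG box of SRF by its name. Words may overlap each other in a sequence. A match is a description of letters and not a bound site.

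The Hnf4 word stood in 1.00% of the members (0.821% to 1.22%), in 0.646% of all far windows and in 0.671% of windows weighted to the GC content of the members. The NFI word stood in 25.5% (24.6% to 26.4%), against 23.0% and 23.5%, and the AP-1 word in 15.7% (15% to 16.5%), against 14.5% and 14.2%. These 3 were above both window values by more than the counting interval, and old-only far peaks had close values for NFI (25.3%) and AP-1 (15.2%) and 0.752% (0.591% to 0.955%) for Hnf4, an interval that overlapped that of the members. The Foxa word stood in 7.32% (6.82% to 7.86%), against 7.48% of windows and 6.78% of those weighted for GC. For Cebp the values were 20.6% (19.9% to 21.5%), 22.2% and 20.5%, and for Hnf6 17.0% (16.3% to 17.8%), 20.8% and 17.0%, so that the GC weighting removed the differences from the windows. The nuclear receptor word gave 27.4% (26.5% to 28.3%), 25.4% and 27.2%, and the Hnf1 word 1.495% (1.27% to 1.76%), 1.86% and 1.37%.

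The E-box word was less frequent than in GC-weighted windows, at 4.72% (4.32% to 5.16%) against 5.60%, but near the 4.78% of all far windows. Likewise below the GC-weighted value was the word of Zfp57, a KRAB zinc finger protein that works through Kap1, at 3.28% (2.94% to 3.65%) against 3.68%, which was above the 2.69% of all far windows. The word of CTCF gave 3.72% (3.36% to 4.12%) against 3.996% of GC-weighted and 3.20% of all windows, and old-only far peaks gave 4.94% (4.51% to 5.42%). The glucocorticoid receptor word, at 16.3% against 15.7% of GC-weighted and 16.1% of all windows, the ETS word, at 1.54% against 1.71% and 1.27%, and the CArG box, at 2.95% against 2.86% and 2.97%, had intervals that spanned the GC-weighted value, and the ETS interval lay above the value of all windows. In the printed sequences, the Nr1h4 intron held the Foxa word, as did the chromosome 2 peak with both factors, there outside both factor peaks. The peaks at Angptl8, Slco1b2, Creb3l3 and on chromosome 3 held the nuclear receptor word, and the Pcx intron the Hnf6 word.

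In its deposited order, which does not follow position, the young list had few members at its start. Members made up 12.6% of the first 1935 peaks, 35.6% of the next 1935 and between 46.7% and 60.8% of each later stretch of 1935. What orders the list is not given in the sources used here. Young Kap1 lay on 19.8% of the 243 members in the first stretch, on 13.8% and 12.6% in the last 2 and on 6.54% to 10.01% in those between.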

How the data were processed

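Chromatin immunoprecipitation was measured in 20 samples. Per the labels and the methods of the study, the authors aligned reads with BWA to mm10, discarded duplicate reads using Picard, pooled each age's uniquely mapped reads across livers and called peaks with PeakSeq, giving 6 deposited lists of positions (H3K14ac, Setdb1 and Kap1, each young and old). Figure legends of the study give 2 replicates per age for H3K14ac and for Setdb1, where its methods give 3. The 4 sequential ChIP samples were not used here. The members and the gene and word lists were chosen with earlier results of these data known.

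Overlap meant at least 1 shared base. Start sites and genes came from GENCODE basic (release M21) and sequences from the RefSeq copy of GRCm38. Second copies were sought with minimap2 2.31. Scripts used Python 3.11.15, numpy 2.4.6, pandas 2.3.3, scipy 1.17.1 and matplotlib 3.10.9. The overlap code was tested on 8000 simulated intervals against bedtools 2.31.1 with 0 differences. Windows were weighted to the members over GC classes of 5%.

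Named were the 8 genes with most members, the 5 largest clusters, the extreme chromosomes and densest bin, 12 members with both factors, up to 4 genes per list, the members next to each threshold and the 3 farthest each way. Some items under this rule are not reported here. Further bins and the gene families were named after their values were seen. Sequences were to start with the members on both factors, up to 10 in all, and were narrowed to 5 of these and 5 from gene lists. Alternatives changed the distances, the overlap, the list depth, the repeat and copy limits and the gene set. No test was run, since each antibody and age had 1 pooled list.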

Additional observations from a re-analysis of the deposited data

How the results depend on the processing

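The 7 main quantities were recomputed under the alternatives that bear on each. Of these values 70 stayed close to the reported one (the number of members within 1.5 times, from 7597 to 12105, and a share within its interval) and 37 moved, and the cause was not tested. The share on young Kap1 was 8.52% with no old peak within 500 bp, 6.17% with none within 5 kb, 10.1% beyond 1 kb and 8.40% beyond 10 kb of start sites, 10.2% with start sites of protein-coding genes only, 8.25% in the first 50% of the young list, 7.63% without members over 50% soft-masked, 14.9% when a factor peak within 500 bp counted, 7.06% when 50% of the factor peak had to lie inside, 8.52% with factor peaks set to 150 bp and 4.78% without the 70 dense bins, an alternative added after seeing the data. The share on old Kap1 was, in the same settings where it moved, 5.07%, 3.35%, 4.60% (soft-masked), 9.37% (within 500 bp), 4.54% (inside), 5.23% (150 bp) and 2.99% (dense bins). Young Setdb1 gave 2.33% in the first 50% of the list, 5.51% within 500 bp, 2.08% inside and 2.51% without the dense bins. Both young factors gave 0.319% with no old peak within 5 kb, 1.38% within 500 bp, 0.268% inside and 0.250% without the dense bins. Old Setdb1 gave 0.828% without soft-masked members and 1.77% within 500 bp. The share within genes was 41.9% with no old peak within 5 kb, 45.9% beyond 1 kb, 40.8% beyond 10 kb, 44.3% with protein-coding start sites, 44.3% in the first 50% of the list, where 4084 members were left, 46.7% without soft-masked members, 37.0% for protein-coding genes and 44.4% without the dense bins. When the gene body had to hold the member, 8 in place of 15 liver transcription factors and 2010 genes in all had one. No paired analysis was possible because the lists are pooled and no result comes from a test. Peaks carry no height, so weak and strong peaks counted alike.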

Other observations

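Members were also counted by gene family, each given to the nearest protein-coding start site within 100 kb. Over all protein-coding genes 15.3% were given a member and 16.2% an old-only far peak. These families were chosen after the values were seen and are given as values alone. Young Kap1 lay on 9.37% of all members and on 25.99% of those in the dense 1 Mb bins. Vomeronasal receptor genes, which encode pheromone receptors, were given 172 members at 90 of 325 genes (27.7%), against 57 genes given an old-only far peak (17.5%), and 41 of the members lay on young Kap1. Olfactory receptor genes were given a member at 62 of 1086 (5.71%). Zinc finger genes named Zfp were given 154 members at 71 of 383 genes (18.5%, 14.97% to 22.7%), near the share of all genes and the 17.2% of Zfp genes given an old-only far peak. Of these members 51 or 33.1% lay on young Kap1, with 19 members at Zfp619 and 14 at Zfp950. Per Mb of far sequence nearest to them, Zfp genes had 10.1 members and 8.25 old-only far peaks. Olfactory receptor genes had 7.47 and 5.15, and vomeronasal receptor genes 13.2 and 7.14. All protein-coding genes had 5.40 and 5.21, so by density of members all 3 families lay above all genes.

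Defensin genes, whose products are antimicrobial peptides, were given 46 members against 22 old-only far peaks, and 19 of the 46 lay on young Kap1. Secretoglobin genes were given 41 against 13, all 41 in the dense 1 Mb bins. Prolactin family genes were given 29 against 10, 21 of them at Prl2c3, and 18 of the 29 lay on young Kap1. Amylase genes were given 12 against 4. The chitinase-like genes went the other way, with 25 members against 35 old-only far peaks, 20 of the members at Chil4. The Ugt genes of glucuronidation were given 6 of each, with none of the members on young Kap1 or in a dense bin. Dense bins held 81 of the 154 Zfp members, 64 of the 172 at vomeronasal genes, 38 of the 46 at defensin genes and 27 of the 29 at prolactin genes.

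In the bin chr7:145000001-145441459, at the end of chromosome 7, the old-only far peaks were the more numerous, 61 against 21 young-only far peaks. In the Ghr bin, chr15:3000001-4000000, there were 24 young-only far peaks and 2 old-only ones.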
